A study of Mus musculus with 18 samples.

Results

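A pair of established mouse cell lines were compared under the same control treatment: Neuro-2A, a line grown from a neuroblastoma, and BV-2, a line of microglia immortalised with a retrovirus. The libraries were chosen by their labels alone, as every control mimic library of the 2 lines: 3 of Neuro-2A and 3 of BV-2, which is 6 of the 18 libraries of the series. The series was made to look for genes of neural cells that respond to a mix of microRNA mimics, and the 6 libraries here belong to the control arm of that experiment. Both lines had received cel-miR-67, a worm microRNA used as a negative control mimic, at 25 nM with the lipid reagent Dharmafect 1, and RNA was taken after 24 h. There were no untransfected cells, so every level below is that of a transfected culture. The submitters label neither line as genetically modified. They label Neuro-2A cells as neurons and BV-2 cells as microglia. Neuro-2A cells were grown in minimum essential medium with non-essential amino acids and pyruvate and were seeded at 6 × 1e5 cells per mL, whereas BV-2 cells were grown in high-glucose DMEM and were seeded at 3 × 1e5 cells per mL. Both media held 10% serum. Line, tumour or immortalised origin, medium and seeding density therefore change together, and their parts in any difference cannot be told apart. Each cell type is represented by 1 line, and the labels do not say whether the 3 libraries of a line came from separate cultures, so p-values measure only the spread between these libraries, which may be technical.

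Neuroblastoma arises from the sympathoadrenal lineage of the neural crest, whose cells are specified by the factors Phox2a, Hand2 and Gata3 and make noradrenaline. Microglia are the resident macrophages of the brain. They depend on the transcription factor PU.1, encoded by Spi1, and on signals through the receptor Csf1r, and they engulf debris, present antigen and sense microbial nucleic acids. BV-2 and Neuro-2A are widely used as stand-ins for microglia and neurons because both proliferate in culture, unlike most of the cells they stand for.

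The libraries held 20909429 to 22334998 counts in Neuro-2A and 18547354 to 24216479 counts in BV-2. From 16131 to 16222 genes lay above 1 TPM (transcript abundance per length, scaled to the same total in each library) in a Neuro-2A library and from 14526 to 14796 in a BV-2 library. Pseudogenes took 5.17 to 5.34% of the counts in Neuro-2A and 3.76 to 3.78% in BV-2. Pearson's r of log2 TPM across genes was 0.989 to 0.995 between libraries of a line and 0.626 to 0.639 between lines, as a description, since genes are not independent replicates. Counts of replicates differed by more than sampling noise in every pair, with a chi-square per degree of freedom of 3.17 to 21, so no library repeated another. TPM values below are the mean ± SD of 3 libraries (n = 3), with Neuro-2A first, or the 3 libraries by replicate number, and they allow levels of different genes to be compared because they are per length.

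Each line carried the general markers of its labelled cell type, while defining markers of mature neurons and of resting microglia were low or absent. The neuronal beta-tubulin gene Tubb3 (ENSMUSG00000062380, mm10 chromosome 8, 123411424 to 123422015) lay at 751, 571 and 585 TPM in Neuro-2A and 0.464, 0.193 and 0.602 TPM in BV-2. The groups did not overlap, and the log2 difference was 10.45 ± 0.2197 (SE; edgeR quasi-likelihood test, adjusted p = 4.44e-11). The macrophage lysosomal glycoprotein gene Cd68 (ENSMUSG00000018774, mm10 chromosome 11, 69664213 to 69666153) lay at 2.77, 2.92 and 1.84 TPM in Neuro-2A and 1797, 1832 and 1627 TPM in BV-2, a log2 difference of -9.60 ± 0.153 (SE; adjusted p = 1.31e-11, edgeR). Both genes stood apart without overlap between the lines. Of 18 neuron markers 15 had enough reads to be tested, and all 15 of those were higher in Neuro-2A by more than 2 fold, among them the growth cone protein Gap43 (at least 2360-fold, 226 against 0 TPM) and the microtubule-destabilising protein Stmn3 (304 against 0 TPM). The other 3 were near 0 in both lines: the neurofilament genes Nefl (0 against 0 TPM) and Nefm (0.0158 against 0 TPM) and the young-neuron gene Dcx (0.0676 against 0 TPM). The nuclear marker of mature neurons, Rbfox3, lay at 0.973, 1.86 and 1.83 TPM in Neuro-2A and 0 TPM in every BV-2 library. The peripheral-neuron intermediate filament Prph was among the most abundant genes of Neuro-2A at 1989 ± 185 TPM, with 1 count in all BV-2 libraries together.

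All 19 microglia and macrophage markers were tested, and 18 were higher in BV-2 by more than 2 fold. Lysozyme Lyz2 lay at 0.276 ± 0.108 against 2740 ± 471 TPM, the signalling adaptor Tyrobp at 0.597 ± 0.705 against 1027 ± 38.5 TPM, and the survival receptor Csf1r at 0.00899 ± 0.0156 against 271 ± 16.9 TPM, each without overlap between the lines. Genes that mark resting microglia in the brain were low in BV-2. The purine receptor P2ry12 lay at 0 TPM in every Neuro-2A library and 2.03, 1.702 and 1.91 TPM in BV-2. The microglial transcription factor Sall1 was at 0 TPM in every BV-2 library and was higher in Neuro-2A by more than 2 fold. Tmem119 lay at 3.93, 3.47 and 2.64 TPM in Neuro-2A and 3.71, 4.37 and 2.98 TPM in BV-2, where the groups overlapped and the difference did not pass (adjusted p = 0.2044, edgeR). The complement gene C1qa was at 3.26 ± 1.51 TPM in BV-2, below C1qb (50.7 ± 17.5 TPM) and C1qc (18.4 ± 3.81 TPM). Markers of other cell types were few, and their part in the results was not tested. Of 10 astrocyte markers 4 were tested, and the summed level of the list was 44.3 to 58 TPM in Neuro-2A and 113 to 169 TPM in BV-2. In it, the glycolytic enzyme Aldoc (9.502 against 138 TPM) led in BV-2 and the factor Sox9 (28.7 against 0.009704 TPM) in Neuro-2A, while the astrocyte filament Gfap was at 0.228 against 0.0547 TPM. Of 8 endothelial markers 6 were tested, 2 were higher in each line, and the list summed to 10.02 to 11.8 TPM in Neuro-2A and 47.9 to 62.1 TPM in BV-2, most of it in BV-2 from the growth factor receptor gene Flt1 (0.1403 ± 0.0912 against 52.3 ± 6.59 TPM), while Cldn5 was at 0 in both. Of 10 oligodendrocyte lineage markers 5 were tested, 4 were higher in Neuro-2A and 1, Cnp (12.5 against 38.01 TPM), in BV-2, the list summed to 20.6 to 24.1 TPM in Neuro-2A and 38.2 to 39.4 TPM in BV-2, and the defining Olig1, Olig2, Mag and Mog were at 0 TPM in both lines. Of 8 fibroblast and pericyte markers 6 were tested and 4 were higher in Neuro-2A, where smooth muscle actin Acta2 led (49.8, 15.5 and 19.01 TPM in Neuro-2A and 3.95, 5.37 and 4.38 TPM in BV-2; its Neuro-2A mean of 28.1 TPM is 17.2 TPM without replicate 1), and the list summed to 33.7 to 59.2 TPM in Neuro-2A and 4.36 to 6.36 TPM in BV-2. Of 10 lymphocyte markers 2 were tested, the B-lineage factor Pax5 was higher in Neuro-2A (5.83 against 0.0534 TPM) and Cd4 in BV-2, the list summed to 6.36 to 7.25 TPM in Neuro-2A and 0.0559 to 0.481 TPM in BV-2, and Cd8a was at 0 TPM in every library. None of 7 neutrophil markers passed the filter on low counts. Both lines expressed Xist (208 ± 17.2 against 149.9 ± 37.7 TPM), and the Y chromosome gene Ddx3y lay at 0.0267 against 0.00793 TPM.

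**Figure D1:**
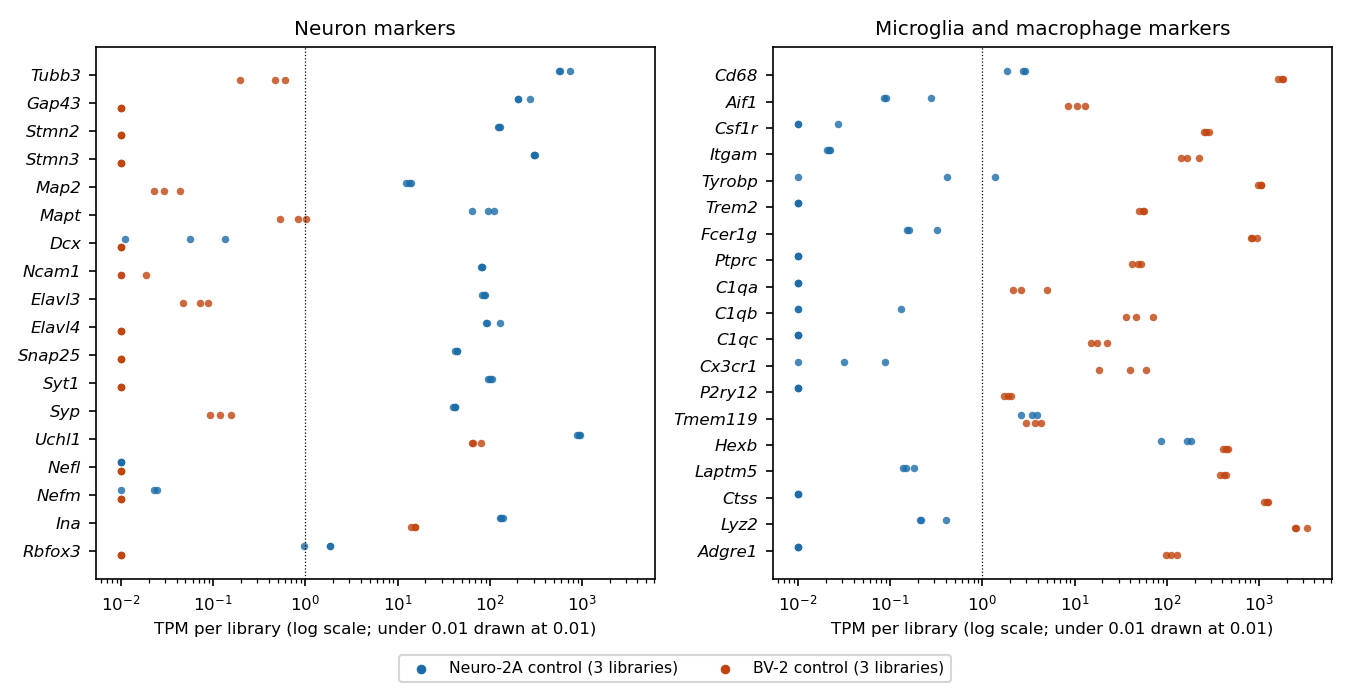
TPM of 18 neuron markers (left) and 19 microglia and macrophage markers (right) on a log scale, 1 point per library, with Neuro-2A in blue and BV-2 in orange, and values under 0.01 TPM drawn at 0.01. The lines separate for nearly all markers, and the exceptions are Nefl, Nefm and Dcx, near 0 in both lines, and Tmem119, at about the same level in both.

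Across the transcriptome the lines differed in most genes. Of 17172 genes tested, 7655 were higher in Neuro-2A (44.6%) and 6496 were higher in BV-2 (37.8%) at an adjusted p under 0.05 (edgeR quasi-likelihood test), 82.4% in all. So large a share makes that call a weak description, and the counts below are of genes shown to differ by more than 2 fold, by edgeR's test against that bound (glmTreat, adjusted p under 0.05). By this test 4229 genes were higher in Neuro-2A (24.6%) and 3246 in BV-2 (18.9%), 43.5% in all. With limma on log2 of TPM plus 1 the number higher in BV-2 was 2149. The median log2 difference over the genes tested was 0.12, with quartiles of −0.82 and 1.19. A smaller group was shown to be close: for 6721 genes (39.1%) the 95% confidence interval of the difference lay within 2 fold. At the other end, 2380 genes were at least 16-fold higher in Neuro-2A by estimate and 1354 in BV-2. The TPM values of the lines did not overlap in 14409 genes (83.9%). The rest include tested genes without a recoverable TPM, whose overlap is not known. Genes with a mean of 5 TPM or more in 1 line and at most 1 TPM in the other numbered 1396 for Neuro-2A and 811 for BV-2, of which 617 and 278 had 0 counts in the other line. These numbers follow the level asked for: they were 2128 and 1174 at 2 TPM or more and 946 and 617 at 10 TPM or more. A gene that is silent in 1 line is tested only because of the other line, so counts over tested members of a list describe them and are to be read beside 24.6% and 18.9%. Counts of intervals within 2 fold are to be read beside 39.1%.

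Genes with the largest differences are given in the order of the fitted log2 difference, which for a gene at or near 0 counts in a line depends on the fit and is no measured rank. Among those higher in Neuro-2A, at 50 TPM or more, the first was the receptor tyrosine kinase Ret (ENSMUSG00000030110, mm10 chromosome 6, 118151745 to 118197718), a receptor for GDNF ligands. It lay at 532, 459 and 463 TPM in Neuro-2A and 0 TPM in every BV-2 library, at least 22390-fold higher in Neuro-2A when BV-2 is set to the limit that a count of 0 allows (3 counts over the 3 libraries). Next came the imprinted gene Mest (623 ± 78.7 TPM, at least 16700-fold), the matrix protein fibulin 2 Fbln2 (273 ± 28.4 TPM, at least 11810-fold), Vat1l (284 ± 29.1 TPM), the sympathetic lineage factor Hand2 (525 ± 141 TPM) and the matrix peroxidase Pxdn (109.8 ± 4.48 TPM), which like Ret had 0 counts in BV-2. Prph, Stox2 (50.6 ± 3.24 TPM), the imprinted zinc finger gene Peg3 (69.9 ± 9.52 TPM), the mitochondrial Chchd10 (590.2 ± 113 TPM), the semaphorin signalling protein Crmp1 (130.0 ± 3.52 TPM) and the ubiquitin ligase Nedd4 (82.6 ± 1.597 TPM) made up the 12. Among those higher in BV-2 the first was the macrophage pore-forming protein Mpeg1 (ENSMUSG00000046805, mm10 chromosome 19, 12460779 to 12465284), at 0 TPM in every Neuro-2A library and 871, 758 and 738 TPM in BV-2 (at least 27690-fold higher in BV-2). The chemokines Ccl3 (3179 ± 352 TPM, at least 19730-fold) and Ccl4 (1338 ± 153 TPM), the inhibitory receptor Sirpa (396 ± 36.2 TPM), the protease cathepsin S Ctss (1208 ± 58.6 TPM), the lipid carrier Fabp4 (259.8 ± 4.45 TPM), the sialic acid receptor Cd33 (132 ± 31.7 TPM), the interferon-inducible Ifi207 (254 ± 10.3 TPM) and Gvin1 (89.3 ± 5.12 TPM), the lectin Clec4d (492 ± 52.3 TPM) and the phospholipid transporter Atp8b4 (113 ± 12.8 TPM) each had 0 counts in Neuro-2A, and the actin bundler Lcp1 (633 ± 67.9 TPM) had 1. Several of these belong to multigene families (Ccl3 and Ccl4, Ifi207, Gvin1), among which shared reads could have been split.

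The most abundant genes overlapped in part. Translation factor Eef1a1 (7551 ± 60.5 against 7015 ± 354 TPM) and the ribosomal genes Rplp1 (4859 ± 374 against 4896 ± 295 TPM) and Rpl8 (4791 ± 205 against 3850 ± 245 TPM) were near the top of both lines and did not pass the test of a difference. Other abundant genes differed. The iron storage subunit Fth1 was the most abundant gene of BV-2 at 1811, 2230 and 2226 TPM in Neuro-2A and 19830, 21030 and 19430 TPM in BV-2, a 10.6-fold difference (adjusted p = 2.53e-09 beyond 2 fold, edgeR), and the other subunit Ftl1 followed at 2723 ± 290.5 against 7085 ± 347 TPM. Both have many processed pseudogenes that can share their reads, so their levels are uncertain. The secreted phosphoprotein Spp1, made by activated macrophages, lay at 0.2398, 0.4204 and 0.345 TPM in Neuro-2A and 5364, 5772 and 5002 TPM in BV-2; it was among the 10 most abundant genes of BV-2. Beta-actin Actb (2378 ± 246 against 5002 ± 76.5 TPM), the MHC class I light chain B2m (588 ± 61.5 against 4632 ± 335 TPM) and the cathepsins Ctsz (309.7 ± 25.7 against 3434 ± 265 TPM) and Ctsd (856 ± 189 against 3373 ± 221 TPM) were also among those 10 and were higher in BV-2 by more than 2 fold. Elongation factor Eef2 (4436 ± 346 against 2081 ± 132 TPM) and the ribosomal genes Rps15 (3562 ± 173 against 2072 ± 106 TPM) and Rplp0 (3434 ± 73.5 against 2251 ± 82.9 TPM) were higher in Neuro-2A and not shown to differ by more than 2 fold.

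**Figure D2:**
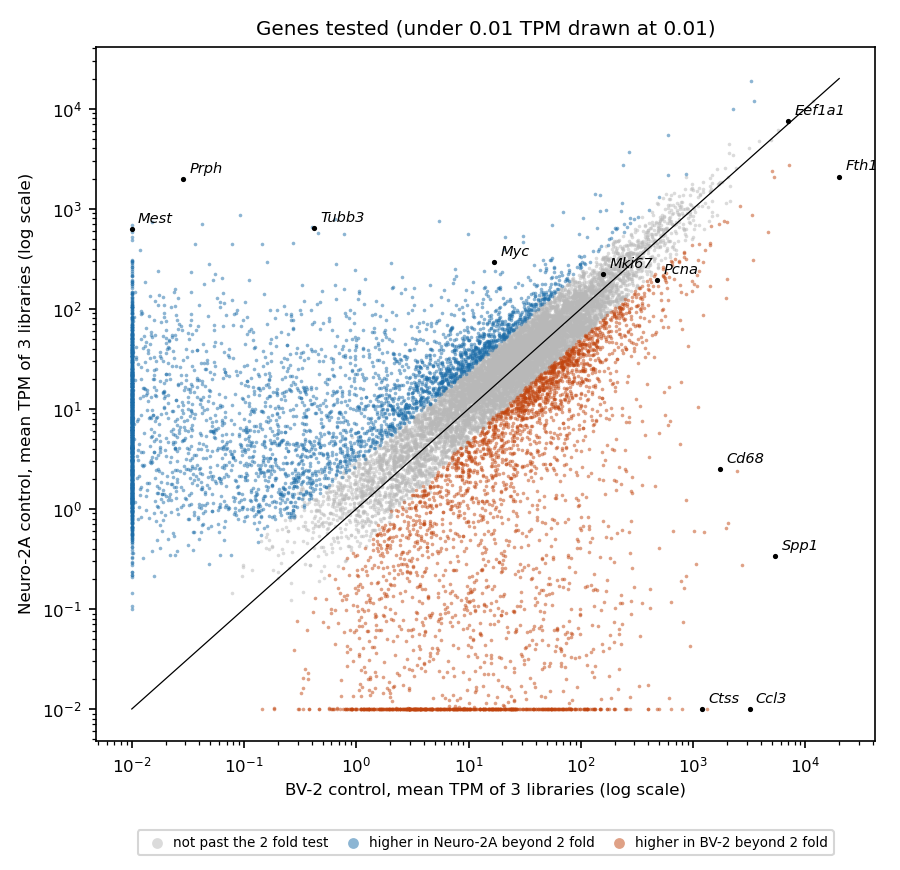
Mean TPM of tested genes with a recoverable TPM in BV-2 (x axis) and Neuro-2A (y axis), both on log scales, means of 3 libraries each, with genes under 0.01 TPM drawn at 0.01. Points are coloured by the test against 2 fold, and the black line marks equal levels. Genes silent in 1 line form the edges of the cloud, where Mest (623 TPM in Neuro-2A) and Ccl3 (3179 TPM in BV-2) lie.

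Neuro-2A expressed most of the sympathoadrenal programme. Of 25 listed factors, enzymes and receptors, 21 were tested and 19 were higher in Neuro-2A by more than 2 fold, against 0 in BV-2; the list median was a log2 difference of 10.81 with genes absent from a line at their bound. The core homeodomain factor Phox2a lay at 199, 191 and 192 TPM in Neuro-2A and 0 TPM in every BV-2 library, without overlap and with 0 counts in BV-2. Hand2 (525 ± 141 TPM), Gata2 (108 ± 6.56 TPM), the LIM factor Isl1 (35.9 ± 10.02 TPM) and the zinc finger factor Insm1 (91.9 ± 15.9 TPM) were likewise at 0 counts in BV-2. Gata3 was present in both lines at 14.3 ± 4.95 against 8.21 ± 0.148 TPM and was not shown to differ by more than 2 fold (adjusted p = 0.01148 for any difference, edgeR). Enzymes of catecholamine synthesis were present at modest levels. Tyrosine hydroxylase Th, the rate-limiting step, lay at 11.1, 17.5 and 17.7 TPM in Neuro-2A and 0 TPM in every BV-2 library, dopamine beta-hydroxylase Dbh at 10.97 ± 4.38 TPM and the decarboxylase Ddc at 1.69 ± 0.802 TPM, while the vesicular transporter Slc18a2 reached 69.1 ± 6.88 TPM. The secretory granule proteins Chgb (869 ± 80.6 TPM) and Chga (218 ± 10.99 TPM) stood well above the enzymes. Of the receptors, Ngfr (262 ± 20.4 TPM) binds neurotrophins, Alk (23.04 ± 4.48 TPM) is mutated in human neuroblastoma, and Chrna3 (89.2 ± 23.97 TPM) is the ganglionic nicotinic subunit. Serotonin synthesis genes Tph2 (15.9 against 0.395 TPM) and Tph1 (5.01 against 0 TPM) and the acetylcholine-degrading Ache (20.8 against 0.291 TPM) were also higher in Neuro-2A, whereas the GABA enzyme Gad1 and the glutamate transporter Slc17a6 were at or near 0 in both lines.

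Most tested regulators of neural development, transcription factors and the Notch ligands Dll1 and Dll3, were higher in Neuro-2A. Of 36 listed, 19 were tested, 16 were higher in Neuro-2A beyond 2 fold (9 by limma on log2 of TPM plus 1) and 2 in BV-2. Sox4 (232 ± 14.6 TPM) and Sox11 (42.3 ± 6.76 TPM), which drive neuronal differentiation, and Myt1 (33.8 ± 1.296 TPM) led, with 0 counts in BV-2 for Sox11 and Myt1. Ebf3 (23.6 ± 0.586 TPM) and Hes6 (21.8 against 6.12 TPM) followed, while Sox2 and Neurog1 were at 0 TPM in both lines. Pax3 (5.797 against 12.99 TPM) and Zic2 (1.15 against 6.39 TPM) were the 2 higher in BV-2, while their relatives Pax6 (3.302 against 0.008105 TPM) and Zic1 (1.17 against 0 TPM) were higher in Neuro-2A. Hox genes showed different clusters in each line. Of 39 Hox genes, 9 were tested. In Neuro-2A the expressed genes came from the HoxC cluster, with Hoxc10 at 58.3, 67.7 and 64.6 TPM in Neuro-2A and 0 TPM in every BV-2 library, Hoxc9 at 18.2 ± 1.27 TPM and Hoxc6 at 12.01 ± 1.68 TPM, and all 6 tested HoxC genes had 0 counts in BV-2. In BV-2 they came from other clusters and included Hoxb4 (7.78 ± 0.0438 TPM), which was at 0 TPM in every Neuro-2A library, and Hoxa5 (1.895 ± 0.388 TPM).

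Many neuronal RNA-binding proteins were higher in Neuro-2A and near 0 in BV-2, although the level in Neuro-2A ranged widely, with Rbfox3 among the lowest. These proteins set the neuronal pattern of alternative splicing. Of 28 listed, 24 were tested, 17 were higher in Neuro-2A beyond 2 fold and 1 in BV-2, with a list median of 5.44. The microexon regulator Srrm4 lay at 26.1, 27.4 and 26.02 TPM in Neuro-2A and 0 TPM in every BV-2 library, and its relative Srrm3 at 28.6 against 0.0212 TPM. Elavl2 (48.1 against 0 TPM), Elavl3 (85.8 against 0.0686 TPM), Elavl4 (104 against 0 TPM), Nova1 (13.1 against 0 TPM), Nova2 (32.8 against 0.884 TPM) and Celf3 (51.8 against 0.191 TPM) showed the same pattern. The neuronal PTB protein Ptbp2 lay at 26.8 ± 1.32 against 4.25 ± 0.536 TPM, a 5.74-fold difference. Ptbp1, which represses neuronal exons and is lost as neurons mature, stayed high in both lines at 352 ± 8.69 against 287 ± 24.8 TPM and did not pass the test (adjusted p = 0.07559, edgeR). Mbnl1 (37.3 against 35.7 TPM) and Mbnl2 (41.9 against 41.05 TPM) did not pass either. Celf2 was the exception, at 0.0104 against 8.19 TPM (799-fold higher in BV-2). The neuronal gene repressor Rest lay at 19.1, 21.9 and 19.02 TPM in Neuro-2A and 21.1, 16.8 and 20.7 TPM in BV-2, with overlapping groups (adjusted p = 0.3449, edgeR). Of 12 genes of its repressor complex, 4 were higher in Neuro-2A and 1 in BV-2 beyond 2 fold. Rcor2 (104 ± 4.22 against 13.2 ± 2.79 TPM), the deacetylase Hdac2 (201 ± 32.3 against 53.98 ± 1.96 TPM) and the demethylase Kdm1a (164 ± 6.76 against 52.97 ± 2.73 TPM) were higher in Neuro-2A, and Rcor1 (30.8 ± 3.77 against 74.7 ± 12.1 TPM) in BV-2.

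Synaptic vesicle and channel genes followed the neuronal and haematopoietic members of each family. Of 33 listed vesicle and SNARE genes, 29 were tested, 20 were higher in Neuro-2A beyond 2 fold and 5 in BV-2. Complexin 1 Cplx1, which clamps fusion, lay at 246, 204 and 215 TPM in Neuro-2A and 0.0565, 0.11 and 0 TPM in BV-2. The vesicle glycoprotein Sv2c (176 against 0.008501 TPM), the calcium sensors Syt4 (131 against 0 TPM) and Syt1 (100.3 against 0 TPM), synapsin 2 Syn2 (90.2 against 0.0192 TPM) and the priming factor Unc13a (77.2 against 1.82 TPM) were also in the higher group. The 5 higher in BV-2 were the SNARE genes Stx4a (24.6 against 102 TPM), Stx3 (2.4 against 35.3 TPM), Snap23 (16.5 against 49.3 TPM) and Vamp8 (6.02 against 48.3 TPM) and their regulator Stxbp2 (13.7 against 80.9 TPM), which serve secretion in blood cells. Beta-synuclein Sncb lay at 32.9 ± 11.8 TPM in Neuro-2A with 0 counts in BV-2. Of 33 voltage-gated and related channels, 25 were tested, with 20 higher in Neuro-2A (13 by limma on log2 of TPM plus 1) and 5 in BV-2 beyond 2 fold. The potassium channel Kcnh2 (77.8 against 0.273 TPM), the calcium channel subunit Cacnb3 (59.1 against 1.38 TPM) and the sodium channel subunit Scn3b (36.9 against 0 TPM) were the highest of the Neuro-2A group. In BV-2 the highest were the proton channel Hvcn1 (2.73 ± 1.06 against 70.4 ± 1.73 TPM) and the calcium-gated potassium channel Kcnn4 (0.0269 ± 0.00103 against 66.6 ± 3.81 TPM), which immune cells use, followed by Cacna1a (1.82 against 24.1 TPM) and Kcnj2 (0 against 23.8 TPM). Among 36 transmitter receptors, 17 were tested and 15 were higher in Neuro-2A. The serotonin-gated channel Htr3a (147 ± 21.7 TPM) and the cannabinoid receptor Cnr1 (104 ± 20.5 TPM) had 0 counts in BV-2. The AMPA subunit Gria1 and the NMDA subunits Grin2a and Grin2b were at or near 0 in both lines.

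Genes of the axonal cytoskeleton were higher in Neuro-2A, and several tubulin genes were abundant in both lines. Of 28 microtubule-associated and transport genes, 25 were tested, with 19 higher in Neuro-2A and 2 in BV-2 beyond 2 fold. Map1b, an axonal microtubule protein, lay at 719, 785 and 759 TPM in Neuro-2A and 5.63, 4.81 and 5.92 TPM in BV-2, the collapsin response gene Dpysl3 at 739.7 against 0.0151 TPM, and the kinesin Kif5c at 149 against 1.06 TPM. Kif21b (6.26 against 31.1 TPM) was the highest of the genes higher in BV-2. Of 14 tested tubulins, 6 were higher in Neuro-2A beyond 2 fold, led by Tubb3, Tubb2a (174 against 64.97 TPM) and Tubb2b (152 against 14.5 TPM). Tubb6 was higher in BV-2 (186 ± 25.8 against 572 ± 19.1 TPM), and Tuba1b, at 922 ± 67.5 against 942 ± 53.3 TPM, did not pass the test. Axon guidance genes were divided. Of 39 listed, 29 were tested, 16 were higher in Neuro-2A and 7 in BV-2 beyond 2 fold. Neuro-2A carried the repulsive ligand Slit3 (136 against 0.0176 TPM), the netrin receptors Unc5b (179 against 7.33 TPM) and Neo1 (93.2 against 2.08 TPM) and the ephrin Efna5 (71.1 against 0 TPM). BV-2 had more of the semaphorin Sema4d (39.5 ± 3.77 against 128 ± 13.4 TPM), the plexin Plxnb2 (98.5 ± 7.61 against 269.9 ± 20.2 TPM) and netrin 1 Ntn1 (0.146 against 10.4 TPM). The related plexin Plxnb1 was higher in Neuro-2A (8.62 ± 0.675 against 0.0155 ± 0.0169 TPM). Integrins were divided too, with 7 of 18 tested higher in Neuro-2A and 8 in BV-2 beyond 2 fold. The leukocyte chains Itgam (0.0215 against 177 TPM), Itgb2 (0.513 against 185 TPM), Itga4 (0.00653 against 47.9 TPM) and Itgax (0 against 24.9 TPM) and the fibronectin receptor Itga5 (29.1 against 202 TPM) were higher in BV-2. The laminin receptors Itga6 (112 against 20.8 TPM) and Itga3 (22.2 against 0.0215 TPM) and Itgb3 (22.7 against 2.02 TPM) were higher in Neuro-2A. The common chain Itgb1 was abundant in both, at 672 ± 9.82 against 376 ± 15.8 TPM, and was not shown to differ by more than 2 fold. Neural adhesion molecules L1cam (115 against 13.1 TPM) and Ncam1 (81.7 against 0.00618 TPM) were higher in Neuro-2A, with 11 of 15 tested cadherin and neural adhesion genes beyond 2 fold (7 by limma on log2 of TPM plus 1), against 1 in BV-2, Nrcam (1.34 against 3.55 TPM).

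BV-2 carried most of the myeloid transcription factors. All 16 listed genes were tested, 13 were higher in BV-2 beyond 2 fold and 2 in Neuro-2A. Spi1, which encodes PU.1 (ENSMUSG00000002111, mm10 chromosome 2, 91082390 to 91115756), lay at 0, 0.0514 and 0 TPM in Neuro-2A and 318, 360.0 and 315 TPM in BV-2, without overlap. The macrophage factors Irf8 (0.0131 ± 0.0227 against 47.5 ± 3.77 TPM), Irf5 (1.31 against 112 TPM), Ikzf1 (0 against 58.6 TPM), Fli1 (0 against 43.4 TPM) and Mef2c (0 against 21.2 TPM) followed the same direction, and the antioxidant factor Nfe2l2 (44.6 ± 9.81 against 229 ± 7.87 TPM) was present in both lines and higher in BV-2. Cebpb, the inflammatory C/EBP factor, was higher in BV-2 but not shown to be so by more than 2 fold (95.99 ± 6.47 against 189 ± 29.2 TPM). Klf4 was 1 of the 2 higher in Neuro-2A, at 34.5 ± 2.27 against 4.49 ± 0.548 TPM. The other was the microglial factor Sall1, which was at 0 TPM in every BV-2 library.

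PU.1 binds DNA at sites that often hold the letters AGGAAGT, which other factors of the ETS family also bind, and the windows of 4 genes expressed in BV-2 are shown because their letters carry the comparison that follows. The genes are Hcls1, a regulator of actin in blood cells, Vav1, an exchange factor for small GTPases, Ctss and Lyz2. Each sequence runs 5′ to 3′ along the gene, from 150 bases before the start to 10 bases after it, as RefSeq gives it for GRCm38.p6, with the matching letters of either strand in capitals. Hcls1 lies at chr16:36934833-36934992 (plus strand), Vav1 at chr17:57278950-57279109 (plus strand), Ctss at chr3:95526636-95526795 (plus strand) and Lyz2 at chr10:117282263-117282422 (minus strand).
Hcls1: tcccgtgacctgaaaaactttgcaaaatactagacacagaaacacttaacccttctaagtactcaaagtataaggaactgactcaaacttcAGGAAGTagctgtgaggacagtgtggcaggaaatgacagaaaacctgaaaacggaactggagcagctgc
Vav1: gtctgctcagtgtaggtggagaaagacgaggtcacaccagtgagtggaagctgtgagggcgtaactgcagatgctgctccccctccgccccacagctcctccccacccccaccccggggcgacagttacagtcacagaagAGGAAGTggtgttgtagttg
Ctss: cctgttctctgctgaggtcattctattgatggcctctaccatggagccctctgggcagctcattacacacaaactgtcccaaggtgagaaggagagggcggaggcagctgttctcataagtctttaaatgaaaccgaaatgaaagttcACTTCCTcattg
Lyz2: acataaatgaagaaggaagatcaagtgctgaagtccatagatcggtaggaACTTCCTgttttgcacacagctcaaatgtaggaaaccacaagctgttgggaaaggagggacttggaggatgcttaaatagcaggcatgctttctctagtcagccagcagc

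The match began 59 bases before the start in Hcls1, 10 bases before it in Vav1, and, on the other strand, 2 bases before it in Ctss and 100 bases before it in Lyz2. Hcls1 lay at 0.0522, 0 and 0 TPM in Neuro-2A and 389.9, 423 and 371 TPM in BV-2, and Vav1 at 0.0357, 0 and 0.07701 TPM in Neuro-2A and 156, 168 and 148 TPM in BV-2, so both were near 0 in Neuro-2A. Over the windows of RefSeq genes (250 bases before to 50 after the start), AGGAAGT on either strand was present in 10.7% of 27025 genes and in 10.9% of the 10996 tested genes that had a window. It was present in 17.3% of 2215 genes higher in BV-2 by more than 2 fold, in 8.48% of 2759 higher in Neuro-2A and in 9.65% of 6022 that did not pass. By list it was present in 0 of 11 neuron markers, 0 of 16 sympathoadrenal genes and 0 of 20 interferon-stimulated genes, and in 2 of 13 myeloid transcription factors, 10 of 27 pattern recognition and Fc receptors, 6 of 13 microglia and macrophage markers and 14 of 18 leukocyte actin regulators (77.8%). Lists with little or no expression in BV-2 held it too, in 4 of 7 neutrophil markers (57.1%) and 3 of 7 lymphocyte markers (42.9%), and so did 2 of 8 astrocyte markers. The leukocyte actin regulators with a match were Was, Wipf1, Arpc1b, Hcls1, Vav1, Dock2, Myo1f, Myo1g, Arhgdib, Elmo1, Fgd2, Tagap, Pstpip1 and Fmnl1. A match is a stretch of letters and not a shown binding site, and windows without one say nothing about the factor.

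The leukocyte actin regulators themselves moved in 1 direction: of 21 tested, 20 were higher in BV-2 beyond 2 fold and 0 in Neuro-2A, with a list median of -6.57. These genes build the cortex and protrusions of migrating blood cells. Coro1a lay at 6.87, 7.58 and 6.24 TPM in Neuro-2A and 605, 634 and 539 TPM in BV-2, the GTPase inhibitor Arhgdib at 18.4 ± 0.628 against 781 ± 49.5 TPM, the blood-cell GTPase Rac2 at 0.119 ± 0.103 against 280.1 ± 21.7 TPM and the Arp2/3 activator Was at 0.0383 ± 0.0333 against 58.7 ± 0.626 TPM. Fgd2, at 16.9 ± 1.77 against 21.8 ± 0.502 TPM, was the 1 that was not shown to differ by more than 2 fold.

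**Figure D3:**
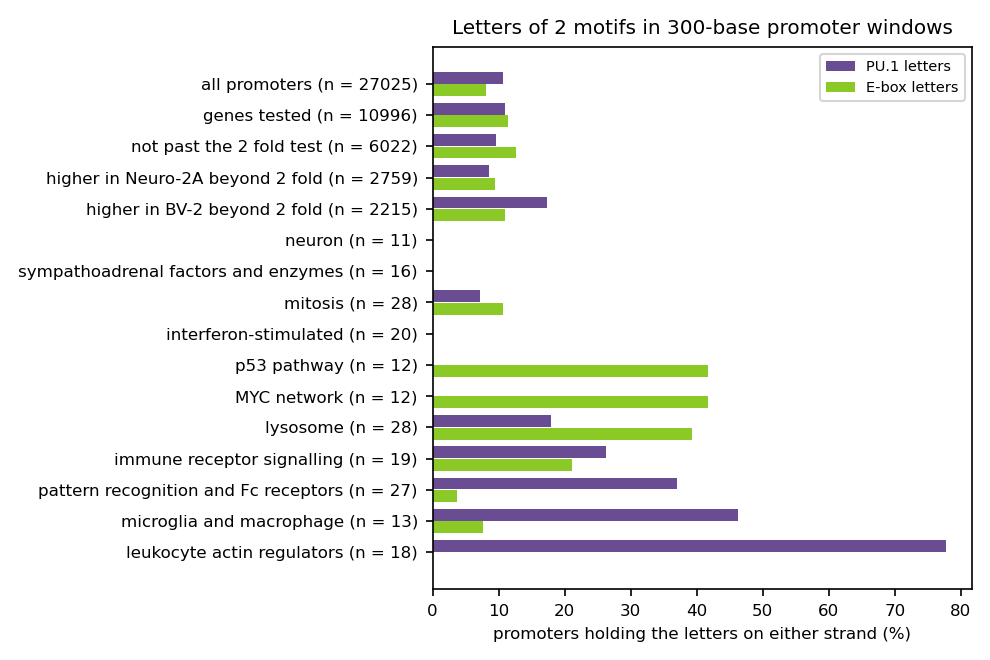
Share of genes (%) whose 300-base promoter window holds AGGAAGT (purple) or CACGTG (green) on either strand, by set, with the number of genes that had a window. The leukocyte actin regulators (77.8%) stand highest for the first, and the MYC network and p53 pathway lists (41.7% each) and the lysosome list (39.3%) for the second.

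Receptors and signalling proteins of the innate immune response were higher in BV-2 nearly throughout. Of 33 pattern recognition and Fc receptors, 31 were tested and 30 were higher in BV-2 beyond 2 fold, against 0 in Neuro-2A (list median -9.43). The endosomal RNA receptor Tlr7 lay at 0.0968, 0.03395 and 0.0348 TPM in Neuro-2A and 178, 185 and 187 TPM in BV-2, the lipopolysaccharide coreceptor Cd14 at 0.117 ± 0.0516 against 637 ± 59.3 TPM, and the antibody receptors Fcgr1 and Fcgr3 at 279 ± 66.6 TPM and 399 ± 49.6 TPM in BV-2. Tlr13, which senses bacterial ribosomal RNA, reached 226 ± 30.3 TPM, above Tlr4 (5.93 ± 1.45 against 25.8 ± 2.499 TPM). Nlrp3, the inflammasome sensor, lay at 0.403 against 98.3 TPM, whereas the adaptor Pycard was at 0 TPM in both lines. Of 23 tested genes of immune receptor signalling, 22 were higher in BV-2 beyond 2 fold. The inhibitory receptor Lilrb4a (0.1898 against 787 TPM), the phosphatase Ptpn6 (2.06 against 285 TPM) and the phospholipase Plcg2 (0.115 against 233 TPM) were the most abundant, and the kinases Syk (63.2 ± 2.14 TPM) and Btk (116 ± 5.21 TPM) were at 0 TPM in Neuro-2A. Of 8 tested genes of the phagocyte NADPH oxidase and its relatives, 7 were higher in BV-2 beyond 2 fold, among them the subunits Cybb (0.00815 against 248 TPM), Cyba (0.0423 against 932 TPM), Ncf1 (2.498 against 247 TPM) and Ncf4 (0.0234 against 125 TPM). The shared subunit Rac1 lay at 244 ± 4.84 against 163 ± 6.02 TPM and was higher in Neuro-2A, though not shown to be so by more than 2 fold. Below the receptors the lines were closer than for the receptors themselves. Of 22 TLR and NF-kB signalling genes, 10 were higher in BV-2 and 1 in Neuro-2A beyond 2 fold. For 9 the interval lay within 2 fold, a share near the 39.1% of all tested genes. The adaptor Myd88 was in the first group (3.71 ± 0.709 against 155 ± 16.8 TPM), while the inhibitor Nfkbia (165 ± 6.76 against 134 ± 16.4 TPM) did not pass the test and the subunit Rela (56.5 ± 2.93 against 99.7 ± 4.21 TPM) was not shown to differ by more than 2 fold.

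BV-2 produced transcripts of many secreted signals. Of 19 chemokines, 13 were tested, 12 were higher in BV-2 beyond 2 fold and 1, the neutrophil attractant Cxcl1, in Neuro-2A. Ccl2, which draws monocytes, lay at 0.463, 0 and 0.374 TPM in Neuro-2A and 828, 1478 and 884 TPM in BV-2, where replicate 2 was the highest. Without replicate 2 the BV-2 mean of Ccl7 was 113.6 TPM in place of 179.3 TPM, and that of Ccl12 was 78.34 TPM in place of 129.1 TPM. Cxcl1 lay at 8.09 ± 1.37 against 0.0499 ± 0.0445 TPM. Of 18 tested cytokine and growth factor genes, 14 were higher in BV-2 and 3 in Neuro-2A. Tnf lay at 0.0804, 0 and 0.0866 TPM in Neuro-2A and 194, 227 and 236 TPM in BV-2, the interleukin 1 antagonist Il1rn at 0.0334 against 96.9 TPM, Tgfb1 at 7.05 ± 1.61 against 132 ± 4.97 TPM, progranulin Grn at 168 ± 36.3 against 1075 ± 75.2 TPM and Igf1 at 0 against 65.3 TPM. Interleukin 1 beta itself was low, with Il1b at 1.22 ± 0.331 TPM in BV-2, and Il10 and Il12b had too few reads to be tested. The 3 higher in Neuro-2A were Il6 (11.4 ± 2.13 against 1.101 ± 0.102 TPM), the related cytokine Lif (3.56 ± 0.344 against 0.826 ± 0.1498 TPM) and the alarmin Il33 (1.82 ± 0.275 against 0.0143 ± 0.0247 TPM). The stress cytokine Gdf15 was high in both lines, at 119 ± 15.2 against 108 ± 14.6 TPM, and did not pass the test. Of 26 tested receptors for such signals, 18 were higher in BV-2 and 2 in Neuro-2A beyond 2 fold. The complement receptors C5ar1 (0 against 133 TPM) and C3ar1 (0.0209 against 132 TPM), the TNF receptor Tnfrsf1b (0.193 against 171 TPM) and the fractalkine receptor Cx3cr1 (0.0397 ± 0.0444 against 39.3 ± 20.8 TPM) were among the 18. The type I receptor of TGF-beta, Tgfbr1, was higher in Neuro-2A (61.4 ± 1.93 against 15.3 ± 1.19 TPM), whereas its type II partner Tgfbr2 was higher in BV-2 (0.00536 against 25.3 TPM).

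Interferon-stimulated genes were also higher in BV-2. Type I interferon induces antiviral proteins through a receptor on the cell surface. All 28 listed genes were tested, and 27 were higher in BV-2 beyond 2 fold (list median -5.90). The antiviral enzyme Rsad2 lay at 1.52, 4.93 and 3.44 TPM in Neuro-2A and 336, 508 and 364 TPM in BV-2, the ubiquitin-like Isg15 at 42.6 ± 13.01 against 906 ± 314 TPM, the tether Bst2 at 85.7 ± 5.99 against 1221 ± 238 TPM and the RNA-activated synthetase Oas1a at 0.763 ± 0.419 against 281 ± 37.5 TPM. Ifi27 (76.5 ± 11.03 against 120.2 ± 19.04 TPM) was the 1 not shown to differ by more than 2 fold. Replicate 2 was the highest BV-2 library for Rsad2 and for the sensing gene Irf7 below. Of 16 tested sensing genes, 13 were higher in BV-2 beyond 2 fold, among them Irf7 (0.105, 0.771 and 0.339 TPM in Neuro-2A and 472, 592 and 429.9 TPM in BV-2), the RNA helicase Ddx58 (3.15 ± 0.407 against 59.9 ± 1.63 TPM) and the DNA sensing adaptor Tmem173 (14.4 ± 2.05 against 100.5 ± 9.35 TPM). Irf3 (18 ± 1.601 against 19.7 ± 0.808 TPM) and the kinase Tbk1 (80.8 ± 2.07 against 58.2 ± 1.51 TPM) were not shown to differ by more than 2 fold. The interferon gene Ifnb1 was listed at 0.823, 1.77 and 2.08 TPM in BV-2 and 0 TPM in Neuro-2A, too few reads to be tested. Both lines carried a transfected RNA duplex, and without untransfected cells the part of the transfection in these levels was not tested. Antigen presentation by MHC class I was partly shared. Of 15 tested genes, 11 were higher in BV-2 beyond 2 fold, including the heavy chain H2-D1 (304 ± 5.096 against 1094 ± 139 TPM), the peptide transporter Tap1 (8.41 ± 1.77 against 81.9 ± 12.7 TPM), the immunoproteasome subunit Psmb8 (29.5 ± 1.34 against 154 ± 27.5 TPM) and the class I regulator Nlrc5 (0.722 ± 0.207 against 61.2 ± 3.66 TPM). H2-K1, at 399 ± 6.96 against 669.5 ± 75.02 TPM, was not shown to differ by that much, and reads of these 2 near-identical heavy chain genes may have been split. For class II, the chain genes H2-Aa and H2-Ab1 were at 0 TPM in both lines, although Cd74 lay at 114 ± 19.3 against 349 ± 57.2 TPM and the costimulator Cd86 at 0 against 62.5 TPM.

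Many lysosomal genes were higher in BV-2, among them all 9 cathepsins listed. Of 36 tested, 23 were higher in BV-2 beyond 2 fold and 0 in Neuro-2A (list median -1.95). Cathepsin B Ctsb lay at 104, 145 and 138 TPM in Neuro-2A and 2013, 2012 and 1853 TPM in BV-2, the bone-resorbing cathepsin Ctsk at 0.715 ± 0.404 against 2045 ± 86.7 TPM, the lipase Lipa at 7.41 ± 1.56 against 255 ± 10.5 TPM and the phagocyte glycoprotein Gpnmb at 0.648 ± 0.351 against 1970 ± 216 TPM. In Neuro-2A, 5 of the genes lay under 1 TPM, and Ctsh and the proton pump subunit Atp6v0d2 had 0 counts. The proteases Lgmn (691 ± 108 against 1133 ± 70.5 TPM) and Tpp1 (83.3 ± 9.81 against 122 ± 16.7 TPM) were not shown to differ by more than 2 fold. The membrane protein Lamp1 (838 ± 80.2 against 941 ± 30.2 TPM) and the saposin precursor Psap (1190 ± 90.1 against 2115 ± 118 TPM) were abundant in both lines and not shown to differ by more than 2 fold. The regulators of lysosomal genes, Tfeb (7.88 ± 1.21 against 15.4 ± 0.785 TPM) and Tfe3 (19.9 ± 1.403 against 19.4 ± 1.23 TPM), were not shown to do so either. Tfeb and Tfe3 bind the E-box letters CACGTG, which MYC proteins also bind. These letters were present in the windows of 11 of 28 lysosomal genes that had one (39.3%), against 8.09% of all genes and 11.5% of the tested genes. The lists of the MYC network and the p53 pathway held them about as often, in 5 of 12 genes each (41.7%). The 3 windows below, over the same 150 and 10 bases, were chosen among the 11 with a match to show the letters at different numbers of matches. Ctsd lies at chr7:142387818-142387977 (minus strand), Lamp1 at chr8:13159011-13159170 (plus strand) and Mcoln1, a lysosomal calcium channel, at chr8:3500369-3500528 (plus strand).
Ctsd: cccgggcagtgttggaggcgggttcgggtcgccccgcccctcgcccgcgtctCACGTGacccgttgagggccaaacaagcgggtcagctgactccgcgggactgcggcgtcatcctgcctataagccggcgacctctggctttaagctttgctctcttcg
Lamp1: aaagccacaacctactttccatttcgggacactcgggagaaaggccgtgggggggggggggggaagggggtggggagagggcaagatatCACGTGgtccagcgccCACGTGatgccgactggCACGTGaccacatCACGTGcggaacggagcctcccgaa
Mcoln1: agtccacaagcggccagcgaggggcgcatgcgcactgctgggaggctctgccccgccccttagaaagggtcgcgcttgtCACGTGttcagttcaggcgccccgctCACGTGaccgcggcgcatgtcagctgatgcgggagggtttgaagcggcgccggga

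Ctsd held 1 match, Mcoln1 2 and Lamp1 4 in these stretches, which read alike on both strands. Ctsd was 4.35-fold higher in BV-2, Lamp1 1.24-fold higher in BV-2 and Mcoln1 1.24-fold higher in Neuro-2A (32.4 ± 2.08 against 23.8 ± 2.65 TPM). These genes were picked for their numbers of matches, and whether differences go with matches was not tested. Lipid handling genes of phagocytes were also higher in BV-2, in 12 of 15 tested beyond 2 fold. Apolipoprotein E Apoe lay at 19.1, 17.2 and 12.9 TPM in Neuro-2A and 714, 509 and 588 TPM in BV-2, lipoprotein lipase Lpl at 0.0129 against 614 TPM, the cholesterol exporter Abcg1 at 0.0562 against 98.1 TPM and the lipid droplet coat Plin2 at 50.1 ± 10.97 against 322 ± 26.6 TPM. The receptor Pparg went the other way, at 14.6 ± 2.21 against 0.225 ± 0.148 TPM.

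**Figure D4:**
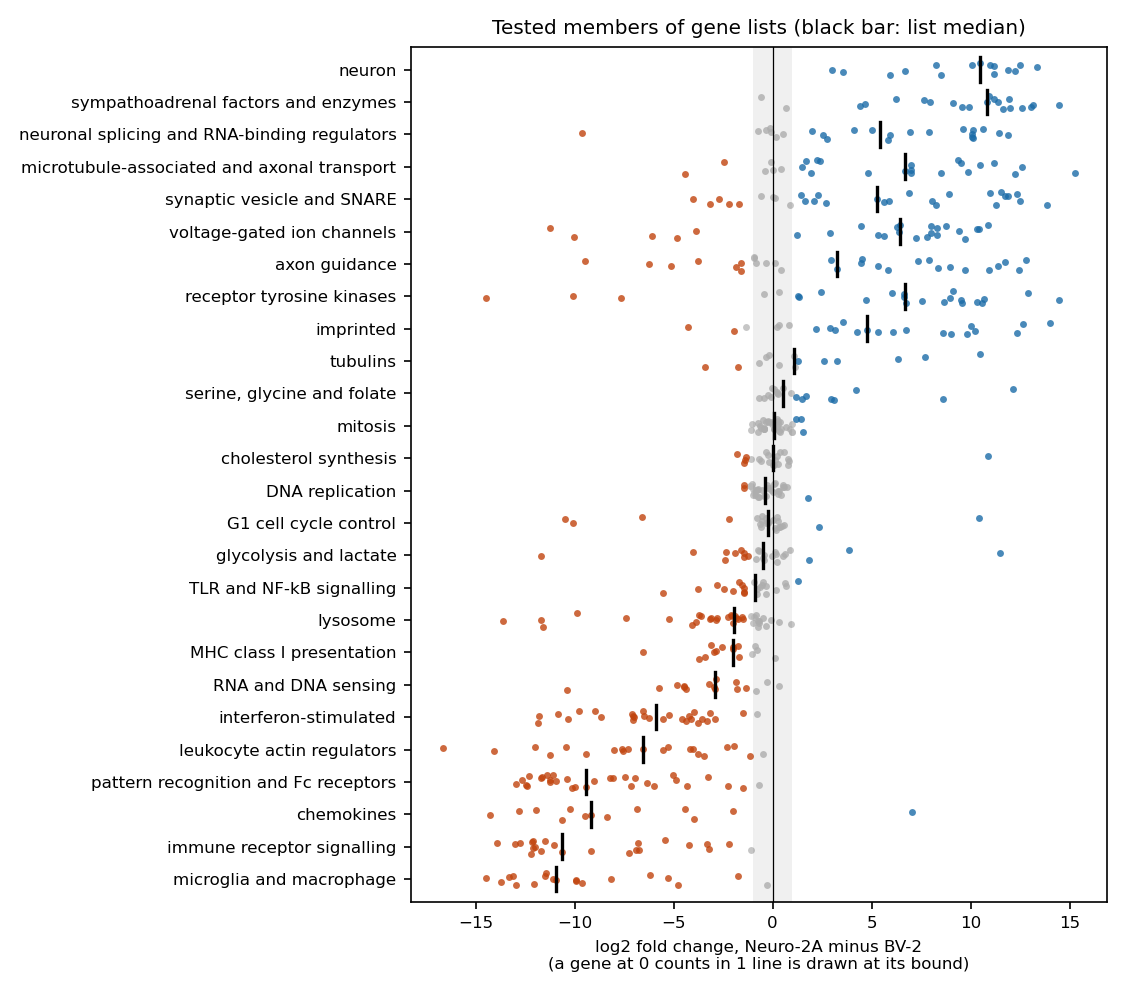
Log2 differences (Neuro-2A minus BV-2) of the tested members of 26 gene lists, 1 point per gene, blue or orange where the gene was higher in Neuro-2A or BV-2 beyond 2 fold and grey where not, with genes at 0 counts in 1 line drawn at their bound and the shaded band marking 2 fold. Neuronal lists lie to the right, immune lists to the left, and mitosis and DNA replication genes cluster around 0.

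Both lines proliferate, and the genes that carry out division were expressed at like levels, while several regulators of cell cycle entry differed. Of 34 mitosis genes tested, 3 were higher in Neuro-2A beyond 2 fold and 0 in BV-2, and for 24 the interval lay within 2 fold. Of 34 DNA replication genes, 1 and 2 were, and for 21 the interval lay within 2 fold. The proliferation marker Mki67 lay at 226, 214 and 229.5 TPM in Neuro-2A and 162, 128 and 186 TPM in BV-2. The 3 mitosis genes were topoisomerase Top2a (339.7 ± 10.4 against 106 ± 7.04 TPM), the cyclin-dependent kinase Cdk1 (129 ± 7.16 against 51.5 ± 3.11 TPM) and Cenpf (54.8 ± 5.89 against 18.6 ± 3.34 TPM). The replication clamp Pcna (195 ± 19.04 against 479.5 ± 35.5 TPM) and Gins3 (11.1 against 27.6 TPM) were higher in BV-2, and Rpa3 (116 against 30.8 TPM) in Neuro-2A. Cyclin D2 Ccnd2, which drives exit from G1, lay at 0.08399, 0.0589 and 0.0604 TPM in Neuro-2A and 67.8, 65.7 and 72.4 TPM in BV-2, and its kinase Cdk6 at 0.01602 ± 0.0145 against 22.9 ± 2.27 TPM, so both were near 0 in Neuro-2A. Of 24 genes of G1 control, 2 were higher in Neuro-2A and 4 in BV-2 beyond 2 fold, and for 16 the interval lay within 2 fold. Ccnd3 (24.1 ± 2.68 against 100.2 ± 6.42 TPM) was also higher in BV-2. Cyclin D1 Ccnd1 (214 ± 9.1 against 162 ± 9.37 TPM) and Cdk4 (281 ± 9.79 against 248 ± 8.86 TPM) were abundant in both lines and not shown to differ by more than 2 fold. The inhibitor Cdkn1b lay at 96.1 ± 4.47 against 17.4 ± 3.35 TPM, and the repressor E2f7 at 22.5 ± 3.09 TPM in Neuro-2A with 0 counts in BV-2. Cdkn2a, which many cultured lines lose, was expressed in both (108 ± 7.68 against 148 ± 5.904 TPM), and its neighbour Cdkn2b reached 8.596 ± 1.18 TPM in BV-2 and 0 TPM in Neuro-2A. Of 13 tested p53 pathway genes, 4 were higher in Neuro-2A beyond 2 fold and 2 in BV-2. The target Phlda3 lay at 103 ± 13.8 against 0.0608 ± 0.05396 TPM and Sesn2 at 122 ± 7.61 against 41.5 ± 1.03 TPM, whereas Trp53 itself (94.3 ± 1.92 against 192 ± 6.62 TPM) and the target Pmaip1 (0 against 37.3 TPM) were higher in BV-2. Cdkn1a, at 107 ± 27.02 against 151 ± 19.96 TPM, was not shown to differ by more than 2 fold.

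Myc and Mycn were far higher in Neuro-2A, where 5 of 12 tested MYC network genes were higher beyond 2 fold, against 2 in BV-2. Myc lay at 282, 311 and 288 TPM in Neuro-2A and 19.3, 14.7 and 16.6 TPM in BV-2 (15.8-fold higher in Neuro-2A, adjusted p = 3.97e-10 beyond 2 fold, edgeR), and Mycn, the gene amplified in many human neuroblastomas, at 40.8 ± 6.03 TPM in Neuro-2A with 1 count in BV-2. The obligate partner Max went the other way (72.1 ± 2.38 against 218 ± 6.601 TPM). BV-2 carries a viral myc oncogene, and whether its reads entered the counts of Myc was not tested. Of 24 genes of MAP kinase signalling and its feedback, 6 were higher in Neuro-2A beyond 2 fold and 3 in BV-2. Egr1, an immediate early gene, lay at 59.8, 52.6 and 55.7 TPM in Neuro-2A and 0.0276, 0 and 0 TPM in BV-2, and the feedback inhibitors Spry1 (30.6 against 1.54 TPM), Spry2 (93.01 against 24.98 TPM) and Spry4 (24.1 against 6.399 TPM) and the ETS factor Etv4 (124 against 15.6 TPM) were also higher in Neuro-2A. Fosl1 (0.2897 against 47.96 TPM) and Ier3 (81.4 ± 14.1 against 367 ± 26.2 TPM) were higher in BV-2. Receptor tyrosine kinases were mostly a Neuro-2A set, with 19 of 24 tested higher there beyond 2 fold and 3 in BV-2. After Ret, the collagen receptor Ddr2 (135 against 0.0146 TPM) and Fgfr1 (39.8 against 0.0208 TPM) were high in Neuro-2A, and Csf1r, Met (0.0171 against 19.7 TPM) and Mertk (0.0522 against 10.3 TPM), which takes up dying cells, were the 3 in BV-2. Oncofetal RNA regulators were divided between the lines, with 4 of 8 tested higher in each beyond 2 fold. The let-7 antagonists Lin28a (64.2, 59.5 and 59.9 TPM in Neuro-2A and 0.0309, 0.0301 and 0 TPM in BV-2) and Lin28b (21.96 ± 2.45 against 1.86 ± 0.462 TPM) and the ubiquitin ligase Trim71 (22.5 against 0.0202 TPM) were higher in Neuro-2A. The chromatin proteins Hmga1 (77.7 ± 5.89 against 770.4 ± 13.8 TPM) and Hmga2 (0.00648 against 54.03 TPM) and the mRNA-binding Igf2bp2 (1.09 against 96.99 TPM) and Igf2bp3 (13.02 ± 1.49 against 34.5 ± 1.15 TPM), several of which are let-7 targets, were higher in BV-2.

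Imprinted genes, which are expressed from 1 parental copy and are often active in embryonic tissue, were mostly higher in Neuro-2A. Of 32 listed, 23 were tested, 17 were higher in Neuro-2A beyond 2 fold (11 by limma on log2 of TPM plus 1) and 2 in BV-2. Mest (539.6, 633 and 696 TPM in Neuro-2A and 0 TPM in every BV-2 library), Peg10 (88.6 against 0.01204 TPM), Snrpn (79.8 against 0 TPM) and Peg3 led, and Mest, Snrpn, Peg3 and Nap1l5 (31.02 ± 7.97 TPM) had 0 counts in BV-2. The receptor Igf2r, which carries enzymes to lysosomes, was higher in BV-2 (1.93 ± 0.297 against 33.9 ± 5.38 TPM). The abundant Gnas lay at 409 ± 12.9 against 208 ± 5.59 TPM and was not shown to differ by more than 2 fold.

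Metabolic genes differed in particular enzymes and not across whole pathways. Of 25 tested glycolysis genes, 9 were higher in BV-2 beyond 2 fold (5 by limma on log2 of TPM plus 1) and 3 in Neuro-2A. BV-2 had the hexokinase Hk3 at 0.0358, 0.1505 and 0.154 TPM in Neuro-2A and 396, 336 and 324 TPM in BV-2 and more of the glucose transporter Slc2a1 (90.5 ± 32.4 against 249.8 ± 47.9 TPM) and of pyruvate kinase Pkm (1054 ± 207 against 2591 ± 192 TPM). Neuro-2A had more of the neuronal glucose transporter Slc2a3 (153 ± 34.7 against 9.54 ± 5.89 TPM), of Pfkm (142 ± 17.6 against 35.7 ± 7.04 TPM) and of the neuronal enolase Eno2. Eno2 lay at 46.4, 126 and 97.8 TPM in Neuro-2A and 0 TPM in every BV-2 library, and its lowest Neuro-2A library was replicate 1. Aldolase Aldoa likewise lay at 1116, 2119 and 1778 TPM in Neuro-2A and 2316, 2055 and 2013 TPM in BV-2, where the groups overlapped. In serine, glycine and folate metabolism, 8 of 19 tested genes were higher in Neuro-2A beyond 2 fold and 0 in BV-2. The transsulfuration enzymes Cth (109 against 0.0192 TPM) and Cbs (17 against 0 TPM), the amino acid carrier Slc1a4 (165 against 19.1 TPM) and the mitochondrial folate enzyme Mthfd2 (429.6 ± 8.92 against 174 ± 15.03 TPM) were among them, while the first enzyme of serine synthesis, Phgdh, lay at 442 ± 39.6 against 472 ± 30.5 TPM. The 2 media differ in amino acids and glucose, and their part in these genes was not tested. Of 21 cholesterol synthesis genes, 4 were higher in BV-2 and 1 in Neuro-2A beyond 2 fold, and for 14 the interval lay within 2 fold. The 4 in BV-2 were Fdps (27.6 ± 5.02 against 85.4 ± 5.01 TPM), Msmo1 (26.2 ± 3.08 against 65.7 ± 6.09 TPM), Nsdhl (9.54 ± 1.096 against 22.9 ± 2.78 TPM) and Sc5d (18.98 ± 1.26 against 44.3 ± 4.34 TPM). Of 18 tested genes of nucleotide and arginine metabolism, 4 were higher in BV-2 beyond 2 fold and 0 in Neuro-2A: the nitric oxide synthase Nos2 (0.0309 ± 0.0314 against 30.97 ± 24.4 TPM, with 17.9 TPM in BV-2 without replicate 1), the arginine carrier Slc7a2 (0 against 16.2 TPM), Impdh2 of guanine nucleotide synthesis (93.6 ± 5.84 against 268 ± 5.21 TPM) and the nucleotide hydrolase Samhd1 (14.1 ± 1.22 against 125 ± 3.61 TPM). Of 9 tested ganglioside and polysialic acid genes, 4 were higher in BV-2 and 0 in Neuro-2A, led by the synthases B4galnt1 (23.7 ± 0.357 against 145 ± 7.77 TPM) and St3gal5 (35.4 ± 0.761 against 102 ± 5.14 TPM).

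The microRNA machinery that the transfected mimic enters was expressed in both lines. For 9 of 18 tested genes the interval of the difference lay within 2 fold, beside 39.1% of all tested genes. Ago2, the slicing Argonaute, lay at 116, 117 and 115 TPM in Neuro-2A and 102, 61.5 and 96.05 TPM in BV-2, with groups that did not overlap (adjusted p = 0.08293, edgeR; 95% confidence interval of the log2 difference -0.03 to 0.61). Dicer1 lay at 34.05 ± 2.36 against 23.2 ± 2.04 TPM and Drosha at 93.9 ± 3.28 against 69.3 ± 2.18 TPM, neither shown to differ by more than 2 fold. Of the 18 genes, 5 were higher in Neuro-2A beyond 2 fold, including the GW182 protein Tnrc6c (38.8 ± 3.02 against 9.41 ± 0.865 TPM) and the uridylyl transferase Zcchc11 (61.7 ± 4.93 against 22.1 ± 3.697 TPM), and 2 in BV-2, Ago4 (1.39 ± 0.205 against 4.35 ± 1.52 TPM) and Zcchc6 (9.804 ± 0.378 against 21.98 ± 2.16 TPM). Among 19 tested microRNA host genes, 7 were higher in Neuro-2A (4 by limma on log2 of TPM plus 1) and 4 in BV-2 beyond 2 fold. Mir155hg lay at 0, 0.0968 and 0 TPM in Neuro-2A and 16.9, 17.1 and 13.9 TPM in BV-2, with 1 count in all Neuro-2A libraries together (adjusted p = 8.90e-09, edgeR). Its product miR-155 is known as a microRNA of activated myeloid and lymphoid cells, and its mature sequence is shown with the seed (bases 2 to 8) in capitals, from RefSeq at chr16:84714143-84714165 of GRCm38.p6, plus strand. Only the host transcript was measured, since poly(A) libraries do not hold mature microRNAs.
mmu-miR-155-5p: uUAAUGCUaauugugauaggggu

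Mir17hg, host of a microRNA cluster that MYC induces, lay at 12.96 ± 0.644 against 12.3 ± 1.21 TPM and did not pass the test, and Mir22hg was higher in BV-2 (6.82 ± 1.14 against 20.5 ± 2.08 TPM). Of 15 tested long noncoding RNAs, 7 were higher in Neuro-2A and 4 in BV-2 beyond 2 fold. The small nucleolar RNA hosts Gas5 (211 ± 10.01 against 63.3 ± 2.48 TPM), Snhg1 (171 ± 26.1 against 40.5 ± 3.396 TPM) and Snhg12 (160.4 ± 30.6 against 18.3 ± 1.17 TPM) were in the first group, and the nuclear RNAs Malat1 (159 ± 10.6 against 399 ± 72.4 TPM) and Neat1 (3.92 ± 0.228 against 33.5 ± 6.91 TPM) in the second.

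Pairs of related genes showed several patterns. Of 37 pairs drawn from the families above with earlier results known, 10 had 1 member higher in each line beyond 2 fold, 18 had 1 member beyond 2 fold and the other not, 6 had both members higher in the same line and 3 had neither beyond 2 fold. The plot of related genes shows 16 of them. The kindlins, which activate integrins, were exchanged in full, with the blood-cell gene Fermt3 at 1.72, 1.33 and 1.51 TPM in Neuro-2A and 300.5, 264 and 267 TPM in BV-2 and the broadly expressed Fermt2 at 78.2, 77.6 and 74.5 TPM in Neuro-2A and 0.0476, 0 and 0 TPM in BV-2. In the WAVE actin complex, Nckap1l lay at 7.47 ± 0.912 against 269 ± 38.6 TPM and Nckap1 at 198 ± 8.99 against 7.45 ± 0.8595 TPM. For the coronins, Coro1a was 95.1-fold higher in BV-2 and Coro2b (51.8 ± 3.01 against 0.02298 ± 0.0212 TPM) was higher in Neuro-2A. Among G proteins, Gnai2 (133 ± 2.64 against 363 ± 20.9 TPM) and Gngt2 (1.91 ± 0.2296 against 37.8 ± 3.71 TPM) were higher in BV-2 and Gnao1 (66.3 ± 2.73 against 0.00857 ± 0.00761 TPM) and Gng3 (19.2 ± 3.13 against 0 ± 0 TPM) in Neuro-2A. In other pairs the widely expressed member was shared and only the restricted one differed beyond 2 fold: Kif5b (130.0 ± 1.67 against 86.5 ± 6.81 TPM) beside Kif5c, Elavl1 (56.98 ± 2.52 against 36.3 ± 2.32 TPM) beside Elavl3, Hk1 (111 ± 19.1 against 92.4 ± 11.5 TPM) beside Hk3, and Map4 (41.9 ± 0.785 against 37.6 ± 4.59 TPM) beside Map2 (13.1 ± 0.8703 against 0.0319 ± 0.0109 TPM). In further pairs both members were higher in the same line. Both plastins, Lcp1 and Pls3 (0.0322 against 89.1 TPM), both Cyfip1 (19.1 against 67.3 TPM) and Cyfip2 (18.9 against 75.8 TPM), and both Dock2 (4.19 against 61.8 TPM) and Dock3 (0.234 against 4.01 TPM) were higher in BV-2, although the second of each is known from neural tissue in the last 2 pairs. The granule priming factor of blood cells, Unc13d, was higher in Neuro-2A (5.66 ± 1.07 against 0.0777 ± 0.0927 TPM), like its neuronal relative Unc13a. Lactate dehydrogenase B was near 0 in both lines, with Ldhb at 0.0861 against 0.0263 TPM beside Ldha at 1202 ± 215 against 1478 ± 63.1 TPM.

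**Figure D5:**
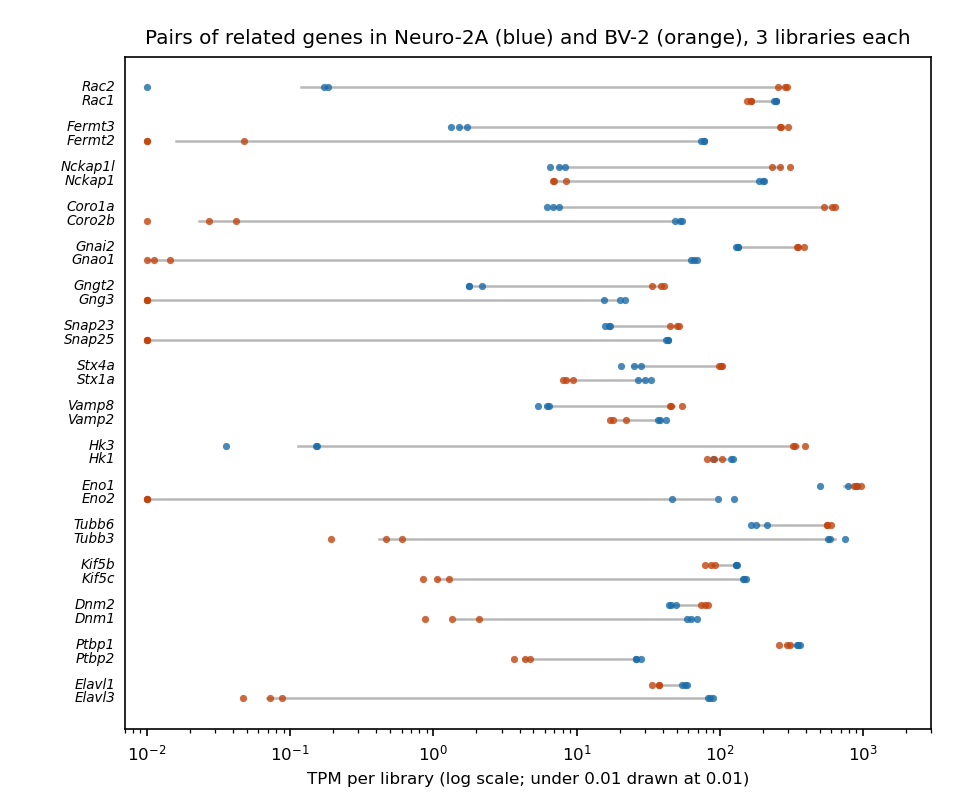
TPM of 16 pairs of related genes on a log scale, 1 point per library, Neuro-2A in blue and BV-2 in orange, with a grey line between the line means and values under 0.01 TPM drawn at 0.01. In pairs such as Fermt3 and Fermt2 the first gene is higher in BV-2 and the second in Neuro-2A, while Rac1, Kif5b, Hk1, Ptbp1 and Elavl1 lie at close levels in both lines.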

How the data were processed

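Poly(A) RNA libraries (NEBNext Ultra II Directional kit, per the labels' protocols) of control mimic cells, 3 of Neuro-2A and 3 of BV-2, were analysed. The mix and astrocyte libraries entered no comparison, except that 1 alternative took its spread from all 9 control libraries. The submitters' processing notes name Trimmomatic 0.39, STAR 2.7.10b and the build mm10. For the counting step, no tool, annotation or strand setting is given in the sources used here, nor how multi-mapping reads were treated. The authors' raw read counts per gene, not normalized per the file headers, hold some fractions and were taken as estimated counts, which were rounded to whole numbers before testing. The authors also deposited log2 TPM, in which a TPM of 1 or less is listed at 0. TPM below that floor were recomputed from the deposited counts, since the deposited TPM were the counts over a gene length and a constant (median difference 0.00039 on the log2 scale). Genes with no deposited TPM above 1 in any library had no recoverable TPM.

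The filter filterByExpr, with 10 as its minimum count, left 17172 of 53342 genes. These were scaled by TMM and tested with edgeR 4.0.16 (glmQLFit and glmQLFTest, and glmTreat against 2 fold) in R 4.3.3 with Benjamini-Hochberg adjustment over all tested genes and a threshold of 0.05. A log2 difference is Neuro-2A minus BV-2 with its SE. Where a line had 0 counts, the fold was bounded with 3 counts over its 3 libraries, and with 1 to 3 counts in a line no fold is given. Intervals and bounds cover counting error and the spread between libraries only. On simulated counts with these means and depths, a log2 difference of 0.5 was called in 50% of 66 genes, one of 2 in 100% of 67 (97.0% against 2 fold) and no difference in 0.113% of 13292. In that simulation 13292 of 13492 genes had no difference, whereas 82.4% of the tested genes were called in the data. The adjusted threshold depends on that share, so these rates do not carry over to the data.

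Genes named are the 12 largest differences per direction past the 2 fold test with at least 50 TPM and no overlap, the 10 most abundant genes per line (gene models, pseudogenes and mitochondrial genes left out), members of 55 gene lists (in full up to 13 members, otherwise the 8 highest and any at 5 TPM or more; other members near 0 were chosen after their values were seen), and 37 pairs of related genes. A few members are not reported here. The members and lists were chosen with earlier results of these data known. Alternatives were DESeq2 1.42.0, limma 3.58.1 on log2 TPM, other scalings and filters, a replicate block and leaving out each library. RefSeq promoter windows (GRCm38.p6, matched by symbol) were found for 10996 of 17172 tested genes.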

Additional observations from a re-analysis of the deposited data

How the results depend on the processing

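Of 845 named and tested genes, none turned its direction with a call in any of 17 alternatives, and from 797 (limma on log2 of TPM plus 1) to 844 (a minimum count of 50) stayed on their side of the threshold. The number of genes higher in BV-2 beyond 2 fold fell from 3246 to 2149 with limma on log2(TPM + 1) and to 2373 with limma on log2(TPM + 0.1). For Neuro-2A it fell from 4229 to 2929 and 3328. Adding 1 to TPM understates differences of low genes, but its part in these falls was not tested. Genes seen in Neuro-2A only numbered 2128 where 2 TPM in that line was enough. Leaving out 1 library at a time gave 7454 to 7747 genes higher in Neuro-2A, and genes higher in BV-2 numbered 6348 to 6609. Beyond 2 fold, without 1 library each, genes higher in Neuro-2A beyond 2 fold numbered 4249 to 4381 and genes higher in BV-2 beyond 2 fold 3283 to 3364, where a line of 2 libraries is assumed to vary like the other. Scaling by library size alone moved the median log2 difference of all genes from 0.12 to 0.25, so small differences are relative to the scaling. The labels number the libraries of each line 1 to 3, but same-number libraries did not deviate together (r −0.151, −0.112 and −0.029), so these numbers were not taken as a pairing. Numbers in the sample descriptions are shared by only a pair of libraries per line (r 0.181 for Neuro-2A replicate 2 with BV-2 replicate 1, and 0.003 for replicate 3 with replicate 2), too few to settle a pairing. With a replicate block 7501 genes were higher in Neuro-2A and 6372 in BV-2, or 4195 and 3217 beyond 2 fold. Counts beyond 2 fold under limma on log2(TPM + 1) dropped by over 1.5 times for voltage-gated channels higher in Neuro-2A (20 to 13), neural transcription factors (16 to 9), imprinted genes (17 to 11), neural adhesion genes (11 to 7), microRNA hosts (7 to 4) and, in BV-2, glycolysis genes (9 to 5); the cause was not tested. Depth limits genes under the filter, which are given as values only, and 1 line per cell type limits every statement to these lines.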

Other observations

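The genes in this section were chosen after their values were seen, so they are values without a test. Part of the reproductive homeobox cluster on the X chromosome was active in Neuro-2A: 14 of 42 Rhox genes lay at 5 TPM or more there and 0 in BV-2, and 13 of these had 0 counts in BV-2. The pseudogenes Rhox7-ps2 and Rhox2-ps are among the 14. Rhox6, Rhox8, Rhox9, Rhox10, Rhox11, Rhox12 and Rhox13 had 0 counts in both lines. Rhox5, the founding member, known from testis and from tumour lines, lay at 578, 549.8 and 531 TPM in Neuro-2A and 0.8201, 0.639 and 0.852 TPM in BV-2. The Rhox2 copies ranged from 54.1 ± 7.14 TPM for Rhox2b to 215 ± 36.8 TPM for Rhox2d, but they are near-identical duplicates among which reads may have been split. The number of separate active genes among the 14 is therefore uncertain. Other genes of the germ line followed in Neuro-2A, with Asz1 at 102 ± 1.98 TPM, Sohlh2 at 105 ± 8.22 TPM, Nxf3 at 210.4 ± 10.5 TPM and the cancer-testis gene Magea5 at 22.3 ± 3.29 TPM, each with 0 counts in BV-2. BV-2 in turn expressed the testis protease Prss50 at 127 ± 12.5 TPM, with 0 counts in Neuro-2A.

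Neuro-2A also carried transcripts of other secretory granule peptides, among them Vgf (658 ± 45.5 TPM) and Scg2 (568 ± 66.3 TPM), which lay below Chgb (869 ± 80.6 TPM). It carried transcripts of the extracellular matrix too, with Fn1 at 293 ± 16.8 against 0.159 ± 0.04505 TPM, Fbln1 at 440.4 ± 5.12 against 0.0776 ± 0.0385 TPM and Col4a2 at 284 ± 41.9 against 2.05 ± 0.464 TPM. The translation factor Eef1a2, the form of muscle and neurons, lay at 443 ± 16.9 against 0.143 ± 0.0837 TPM. The laminin subunit Lamc1 was shared (167 ± 11.6 against 96.7 ± 10.6 TPM), while Lama1 and Lamb1 were near 0 in both lines. In BV-2, abundant genes outside the lists were Acod1, which makes itaconate (1246 ± 158 TPM), the metallothioneins Mt2 (0.161 ± 0.279 against 826 ± 48.5 TPM) and Mt1 (7.52 ± 2.92 against 620.5 ± 48.1 TPM), Ly6e (0.0738 ± 0.0661 against 804 ± 104 TPM), the urokinase Plau (0.597 ± 0.1099 against 662 ± 45.5 TPM), the hyaluronan receptor Cd44 (0.0746 ± 0.0142 against 197 ± 9.66 TPM) and the granulocyte factor Cebpe (152 ± 9.61 TPM). The ubiquitin ligases Nedd4 and Nedd4l were exchanged, at 82.6 ± 1.597 against 0 ± 0 TPM and 0.00956 ± 0.000365 against 13.4 ± 1.09 TPM. The pigment cell exchanger Slc24a5 reached 228 ± 12.7 TPM in BV-2 and 0.137 ± 0.0677 TPM in Neuro-2A.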
